A study of Mus musculus with 6 samples.

Results

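The Hippo pathway is a kinase cascade that limits tissue growth. The kinases Lats1 and Lats2 phosphorylate the co-activators Yap1 and Wwtr1 (also called TAZ) and so hold them in the cytoplasm. Unphosphorylated Yap1 and Wwtr1 enter the nucleus, where they act through the TEAD transcription factors Tead1 to Tead4, since neither co-activator binds DNA itself. Vgll3 is a cofactor that binds TEADs in place of Yap1 and Wwtr1, and the angiomotin family protein Amotl2 binds Yap1 and holds it outside the nucleus. In skeletal cells the pathway is known for its part in the response to matrix stiffness and in the choice between bone and fat fates.

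These 10 genes, of 21853 protein-coding genes in the annotation, were followed by ATAC-seq, a transposase-based assay whose reads concentrate in open chromatin. Skeletal stem and progenitor cells, or SSPCs, had been cultured from tibial and femoral marrow of untreated C57BL/6 mice and taken at passage 1. As limits of the model, the labels give the ages only as young and middle-aged, they name no sort of the plated marrow, and they do not say how many animals stood behind each library. There were 3 young and 3 middle-aged libraries, each with its own list of called peaks, and p-values below measure only the spread between these libraries. A start-site peak was a called peak within 1000 bp of any protein-coding transcription start site (TSS) of the gene, and a locus was the gene body with 20 kb upstream. The 10 loci held 34 of the 63840 accessible regions obtained by merging overlapping peaks of all libraries.

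Young 3 stood apart from the other libraries. It had the lowest genome-wide background, 1.65 extended reads per base against 2.40 to 3.75 in the others, and the shortest list, 27628 peaks against 35953 and 43941 in the other young and 46364 to 48344 in the middle-aged libraries. Each peak was given its percentile rank by −log10 q within its own list. On this scale 100 is the strongest peak and 0 means that no peak was called. A percentile still depends on the length of the list, since added weak peaks raise every stronger one. The cell label was checked against marker genes. Of 10 SSPC and stromal markers, 8 had a start-site peak in at least 1 library, and Lepr and Prrx1, which define marrow stromal cells, had none in any library. Of 10 hematopoietic markers all had one in at least 1 library, as did 5 of 8 endothelial, 2 of 8 neuronal and 0 of 8 hepatocyte markers. The endothelial marker Cdh5 ranked from 85.4 to 89.2 in all 6 libraries, above every stromal marker. The other endothelial markers were weaker, and none of them had a peak in every library. Tie1, Emcn and Robo4 had none in any library, and Tek had a peak in middle-aged 1 only. The highest rank among these others was 42.6, for Pecam1 in middle-aged 1, and Pecam1 had no peak in young 1, young 2 or middle-aged 3. The mean rank of the 8 stromal markers ran from 15.5 to 33.6 in young and from 35.4 to 51.9 in middle-aged libraries, and that of the hematopoietic markers from 44.4 to 49.6 and from 57.4 to 58.9. The mean rank of the 5 endothelial markers with a peak, Cdh5 included, ran from 21.7 to 23.8 and from 21.6 to 39.3. In bulk libraries a change in the mix of cells and a change in the chromatin of each cell cannot be told apart.

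The sequences before the start sites are shown first, because the letters bound by TEAD factors recur in them. The core TEAD motif GGAATG was searched on both strands, so that it also appears as CATTCC. It was found in the 150 bases before the first TSS of 4 of the 10 genes, Yap1, Wwtr1, Vgll3 and Amotl2, and of 6.67% of all 21853 genes. The stretches below are from mm10 (GRCm38), are written on the gene's strand, overlap no annotated exon, and carry the motif in capitals. They lie at chr9:8004597-8004746 (minus strand), chr3:57575911-57576060 (minus), chr16:65815107-65815256 (plus) and chr9:102716522-102716671 (plus).
Yap1: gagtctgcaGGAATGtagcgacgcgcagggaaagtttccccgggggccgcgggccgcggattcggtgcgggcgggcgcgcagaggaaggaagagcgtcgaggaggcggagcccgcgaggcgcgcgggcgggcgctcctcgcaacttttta
Wwtr1: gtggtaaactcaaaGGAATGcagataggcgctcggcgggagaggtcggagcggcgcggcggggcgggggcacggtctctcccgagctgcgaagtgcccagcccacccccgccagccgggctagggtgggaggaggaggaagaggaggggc
Vgll3: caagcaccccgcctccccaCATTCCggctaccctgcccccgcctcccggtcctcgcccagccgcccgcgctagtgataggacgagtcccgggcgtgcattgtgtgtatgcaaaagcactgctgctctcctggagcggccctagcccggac
Amotl2: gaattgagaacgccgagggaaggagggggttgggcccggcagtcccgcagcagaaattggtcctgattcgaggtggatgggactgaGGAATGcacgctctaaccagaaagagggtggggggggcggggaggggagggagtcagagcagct

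Measured at the accessible regions themselves, the TEAD letters were also frequent, and the Yap1 and Vgll3 copies there are those shown above. The Amotl2 copy shown above lies outside every accessible region of its locus. The letters lay within the 200 bp around the summit of 13 of the 34 regions (38.2%), against 12.7% of all regions of the series. At the genes' own start sites they were in 8 of 11 regions (72.7%), against 7.15% of the 16119 regions at any TSS. These 8 regions belonged to Tead1, Tead3, Tead4, Yap1, Wwtr1, Lats2, Vgll3 and Amotl2, 1 region each, and the Tead4 region held 3 copies within 27 bases. The Wwtr1 region with the letters was the weak one at -750 bp from the TSS, called in middle-aged 3 only, while the strong region at its TSS held them farther than 100 bp from the summit. Away from TSSs the letters were in 5 of 20 regions (25.0%), against 14.6%. A second set of windows, the RefSeq promoters of GRCm38.p6 from 250 bases before to 50 after each start, gave the letters in 6 of the 8 genes with an entry, against 16.6% of 27025 genes. The AP-1 letters TGANTCA, which read the same on both strands, were in 5 of 34 regions (14.7%) and 15.9% of all regions. They were in 0 of the 11 start-site regions, against 4.89% of the regions at any TSS. These shares are descriptions of letters, with no test, and say nothing of binding.

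**Figure D1:**
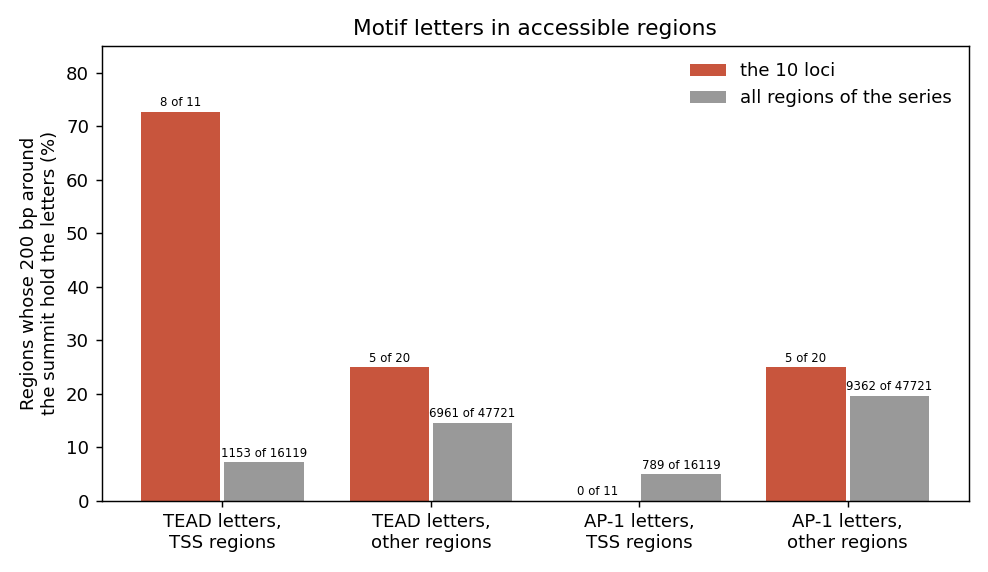
Share of accessible regions (y axis, percent) whose 200 bp around the summit hold the TEAD letters GGAATG or the AP-1 letters TGANTCA on either strand, at start sites and elsewhere, for the 10 loci and for all regions of the series; numbers over the bars are regions with the letters of all regions. The TEAD letters stand in 8 of 11 start-site regions of the 10 genes, and the AP-1 letters in 0 of 11. Of the regions at any TSS, 7.15% hold the TEAD letters and 4.89% the AP-1 letters.

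Among the TEAD factors, 3 of 4 had a start-site peak. Tead2 had no peak at any of its 9 start sites in any library. Its only region in all 6 libraries lay 11.1 kb upstream, at an exon and within 1000 bp of a start site of the neighbouring gene Ccdc155. This region ranked 26.1, 44.4 and 24.8 in young and 55.3, 51.1 and 47.9 in middle-aged libraries, without overlap (exact permutation test, two-sided p = 0.1). Its signal cannot be assigned to Tead2.

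Tead1 showed the largest difference of the 10 genes. Its start-site peak had ranks of 0, 0 and 1.37 in young 1, 2 and 3 and of 40.4, 32.8 and 59.0 in middle-aged 1, 2 and 3. The groups did not overlap, and no peak was called in young 1 or young 2. The means were 0.457 ± 0.792 (SD, n = 3) and 44.1 ± 13.5 (SD, n = 3), which differ by 43.6 percentile points (two-sided p = 0.1 by exact permutation, the lower limit for 3 against 3 libraries). The annotation places the 9 start sites of Tead1 in 4 groups, and only the first had a peak.

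By contrast, an intronic region of Tead1 17.9 kb into the gene was called in all 6 libraries and did not separate the ages. Its ranks were 64.6, 64.8 and 47.0 in young and 73.6, 38.4 and 67.2 in middle-aged libraries, and the means differed by 0.924 points (exact permutation test, two-sided p = 0.8). It is shown because it carries 2 copies of the AP-1 letters, in capitals, within 19 bases of each other, at chr7:112697151-112697300 on the plus strand.
Tead1 intron: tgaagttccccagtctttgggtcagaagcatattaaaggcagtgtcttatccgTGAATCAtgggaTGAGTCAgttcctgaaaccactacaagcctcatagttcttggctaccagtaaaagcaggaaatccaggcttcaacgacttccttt

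Tead3 ranked 11.3, 49.4 and 33.4 in young and 59.1, 54.8 and 58.1 in middle-aged libraries. The groups did not overlap, and the young libraries were far more spread (31.4 ± 19.2 against 57.3 ± 2.25, SD, n = 3; exact permutation test, two-sided p = 0.1). Tead4 ranked 17.7, 43.1 and 0 in young and 54.3, 39.0 and 60.2 in middle-aged libraries. Young 2 lay above middle-aged 2, so that the groups overlapped (difference 30.9 points; exact permutation test, two-sided p = 0.2). Tead4 has a second start site 25.1 kb into the gene, with ranks of 5.34, 43.1 and 0 against 1.88, 33.0 and 47.9, where the ages overlapped too.

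**Figure D2:**
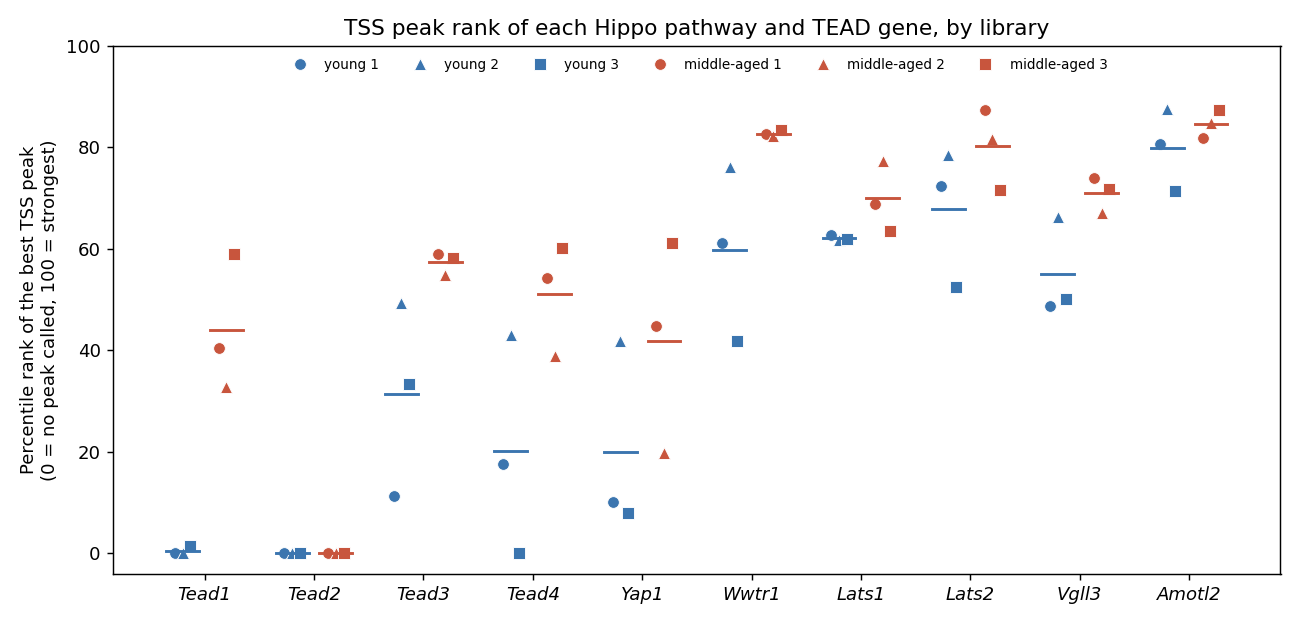
Percentile rank of the best start-site peak (y axis, 0 where no peak was called) of the 10 genes (x axis) in each library; symbols are libraries, blue young and red middle-aged, and bars are group means. Tead1 is near 0 in the young libraries and from 32.8 to 59.0 in the middle-aged ones, and Tead2 is at 0 throughout.

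The 2 co-activators differed in level and in how far the ages separated. Yap1 had a start-site peak in all 6 libraries, with ranks of 10.1, 41.8 and 8.01 in young and 44.9, 19.7 and 61.2 in middle-aged libraries. The ranks overlapped, since young 2 lay above middle-aged 2 (difference 22.0 points; exact permutation test, two-sided p = 0.2). Wwtr1 was the stronger, with 61.2, 76.2 and 41.9 in young and 82.6, 82.2 and 83.3 in middle-aged libraries. The middle-aged libraries lay close together and above every young library (59.8 ± 17.2 against 82.7 ± 0.573, SD, n = 3; exact permutation test, two-sided p = 0.1). The caller's fold enrichment, the summit pileup over the local background, separated the ages of Wwtr1 as well, with 6.40, 8.79 and 6.13 in young and 10.6, 10.1 and 9.79 in middle-aged libraries, a ratio of means of 1.43. The Wwtr1 locus held 1 peak in each young library and 2, 2 and 5 in the middle-aged ones. In middle-aged 1 and 3, however, 1 of the added peaks lay inside the start-site region, which every young list covered with a single peak. Counted as merged regions, the locus held 1 in each young library and 1, 2 and 4 in the middle-aged ones, so that the ages overlapped.

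The kinase genes were accessible in every library. Lats1 ranked 62.8, 61.8 and 61.9 in young and 68.9, 77.4 and 63.6 in middle-aged libraries, which did not overlap (difference 7.80 points; exact permutation test, two-sided p = 0.1). The young values lay close together, and middle-aged 3 exceeded the highest of them by less than 1 point. The Lats1 start-site region also covers a start site of Pcmt1, so that its signal cannot be assigned to Lats1 alone. Both further regions in the Lats1 locus lay at exons and start sites of Pcmt1 and Nup43.

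Lats2 ranked 72.5, 78.4 and 52.5 in young and 87.3, 81.6 and 71.7 in middle-aged libraries, with overlap (difference 12.4 points; exact permutation test, two-sided p = 0.3). This peak stood at internal start sites 12.2 kb into the gene, and the first annotated start site of Lats2 had no peak in any library. The region also covers a start site of the coding gene Gm49361, so that its signal cannot be assigned to Lats2 alone. The strongest region away from a TSS in all 10 loci lay in Lats2, at chr14:57729906-57730618, with ranks of 88.2, 79.7 and 85.3 in young and 81.3, 84.9 and 86.0 in middle-aged libraries. The ages overlapped and the means differed by -0.34 points (exact permutation test, two-sided p = 0.9). A weaker region 2.2 kb before the first start site ranked 11.3, 44.4 and 0 in young and 57.9, 47.9 and 64.5 in middle-aged libraries, without overlap (exact permutation test, two-sided p = 0.1). Around its summit, at chr14:57760535-57760684 on the minus strand, stood 2 copies of the TEAD letters in opposite orientation, in capitals.
Lats2 upstream: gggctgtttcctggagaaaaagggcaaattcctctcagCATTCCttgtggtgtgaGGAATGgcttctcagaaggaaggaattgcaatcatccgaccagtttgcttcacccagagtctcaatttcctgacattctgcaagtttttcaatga

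Vgll3 ranked 48.7, 66.2 and 50.1 in young and 73.9, 67.2 and 71.8 in middle-aged libraries. The groups did not overlap, although middle-aged 2 was less than 1 point above young 2 (difference 15.9 points; exact permutation test, two-sided p = 0.1). A region 3.7 kb into Vgll3 ranked 44.1, 41.6 and 0 in young and 45.3, 54.7 and 61.9 in middle-aged libraries, also without overlap. It held the AP-1 letters, in capitals, at chr16:65818861-65819010 on the plus strand.
Vgll3 body: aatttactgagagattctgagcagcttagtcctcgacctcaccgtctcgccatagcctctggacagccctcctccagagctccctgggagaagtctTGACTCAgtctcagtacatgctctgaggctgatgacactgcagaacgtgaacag

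Amotl2 had the highest mean rank of the 10 genes and, of the 9 with a start-site peak, the smallest difference between ages. Its ranks were 80.6, 87.7 and 71.4 in young and 81.9, 84.8 and 87.3 in middle-aged libraries (difference 4.74 points; exact permutation test, two-sided p = 0.5). Young 2 had the highest value of all libraries. A region 9.8 kb into the gene ranked 0, 34.4 and 14.1 in young and 39.9, 49.0 and 55.3 in middle-aged libraries, without overlap (exact permutation test, two-sided p = 0.1).

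Counted together, 9 of the 10 genes had a start-site peak in at least 1 library. Each young library had 8 of them and each middle-aged one 9. Of all 21853 protein-coding genes, 13447 had a start-site peak in at least 1 library. Genes with one numbered 11904, 12417 and 10824 in young and 12551, 12551 and 12675 in middle-aged libraries. In 5 of the 9 Hippo genes with a peak (Tead1, Tead3, Wwtr1, Lats1 and Vgll3) every middle-aged library ranked above every young one. In 0 the reverse held. Of the 13447 protein-coding genes with a start-site peak, 27.6% separated in the first direction and 0.268% in the second. The median difference was 22.0 points over the 9 genes and 5.60 over all genes. Ranks in the middle of a list moved farther than those at its top, so that the genes were also read against genes of like mean rank. With a mean rank over 20 and up to 40, Tead1 separated and Tead4 and Yap1 did not, against 24.7% of all genes and a median of 20 points. Between 40 and 60, Tead3 separated, against 31.9% and a median of 20 points. Between 60 and 80, Wwtr1, Lats1 and Vgll3 of 4 genes separated, against 37.4% and a median of 11.2 points. Above 80, Amotl2 did not, against 28.2% and a median of 2.53 points, and the band up to 20, with 9.52%, held none of the 10 genes.

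**Figure D3:**
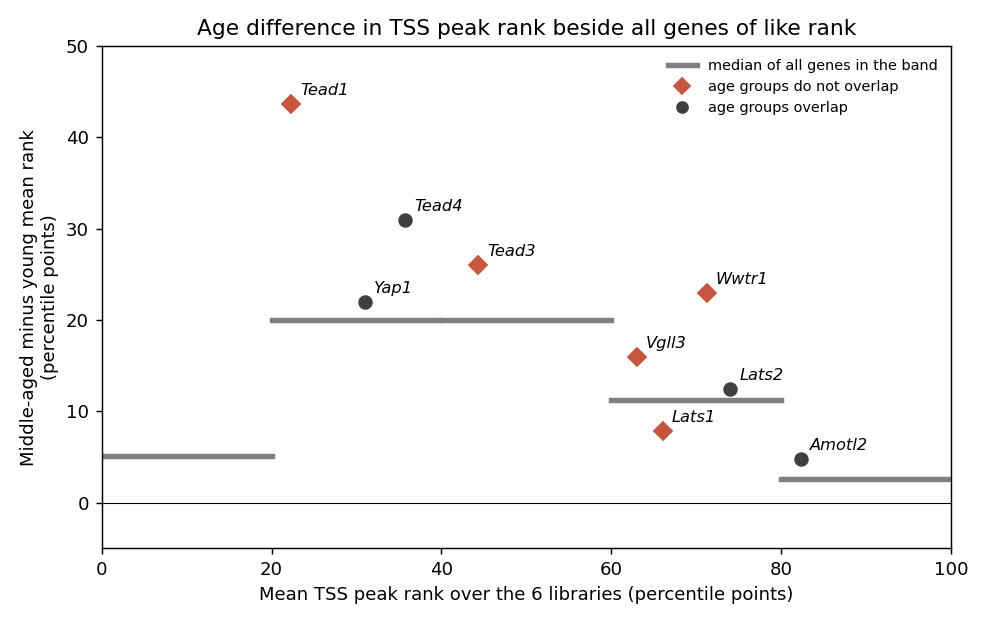
Middle-aged minus young mean start-site rank (y axis, percentile points) against the mean rank over the 6 libraries (x axis) for the 9 genes with a peak; grey lines are medians of all genes in each band of mean rank, and diamonds mark genes whose age groups do not overlap. Tead1 lies at 43.6 points where the median is 20, and Wwtr1 at 23.0 where it is 11.2, while Yap1, Lats2 and Lats1 lie near their band's median.

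The count depended on the length of the lists. Each list was then limited to its 27628 best peaks, as many as young 3 holds. Only Wwtr1 of the 9 genes still separated, against 8.87% of all genes. The median difference of the 9 genes fell from 22.0 to 8.07 points, and that of all genes from 5.60 to 0.954. Tead1 then differed by 8.96 points with overlap. Lats1 and Amotl2 turned direction, to -2.27 and -1.68 points. Ranked only among regions called in all 6 libraries, Wwtr1 was again the only gene to separate, of the 7 that could be ranked and against 9.27% of all genes. Tead1 and Tead4 have no start-site region called in every library and could not be ranked there. Without young 3 the same 5 genes separated, against 29.7% of all genes, but the difference fell from 23.0 to 14.0 points for Wwtr1, from 12.4 to 4.76 for Lats2 and from 4.74 to 0.494 for Amotl2. The mean ranks of the stromal and hematopoietic markers moved in the same direction as those of the 9 genes, which ran from 35.6 to 56.1 in young and from 59.9 to 68.5 in middle-aged libraries, and over all genes with a peak from 55.7 to 68.6 and from 70.6 to 72.1. The part of cell mix and of depth in the result was not tested.

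**Figure D4:**
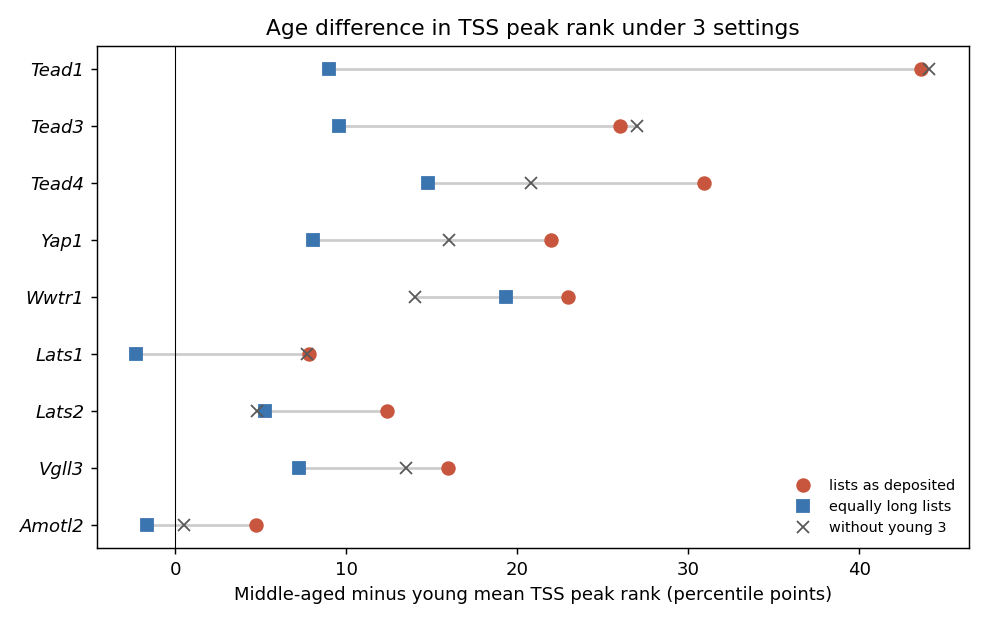
Middle-aged minus young mean start-site rank (x axis, percentile points) of the 9 genes with a peak (y axis) with the lists as deposited, with equally long lists and without young 3. Equally long lists bring Tead1 from 43.6 to 8.96 points and leave Wwtr1 at 19.3, and Lats1 and Amotl2 fall below 0.

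Over whole loci, the 10 genes held 20, 24 and 16 peaks in young and 25, 27 and 31 in middle-aged libraries (20 ± 4.0 against 27.7 ± 3.06, SD, n = 3), a ratio of 1.38. The ratio was 1.32 for all peaks of the lists and 1.26 for the loci of all genes. Counted as merged regions the ratio was 1.36. Only Tead1 and Wwtr1 had more peaks in every middle-aged library than in every young one, 2 of 10 genes, against 6.60% of genes with a locus peak, and 0 of 10 had fewer, against 0.0948%. Tead1 had 2, 1 and 2 peaks in young and 4, 3 and 4 in middle-aged libraries, in a locus of 247 kb, and counted as merged regions 2, 1 and 2 against 3, 3 and 4. At 1.08 peaks per 100 kb this locus stood at percentile 9.96 of the genes with a locus peak.

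Of the 34 regions, 11 lay at the genes' start sites, 14 elsewhere in gene bodies and 9 upstream. They were shared between libraries about as often as other regions, 12 (35.3%) being called in all 6 libraries against 35.1% of all regions. No region was called in all libraries of one age and none of the other, for which all regions gave 2.21% for middle-aged and 0.036% for young. In 10 regions every middle-aged rank exceeded every young one, against 15.3% of all regions, and in 0 the reverse held, against 0.287%. Of the 34 regions, 5 lay within 1000 bp of a coding start site of another gene, in the Tead2, Lats1 and Lats2 loci, and all were called in all 6 libraries. Among the 10 were the Tead2 region at Ccdc155, the Lats1 start-site region and the Lats1 region at Nup43. In 4 loci the strongest region away from start sites was weaker, with no rank above 31.4. That of Tead3, 9.6 kb into the gene, ranked 0, 7.36 and 20.4 in young and 19.5, 13.3 and 17.5 in middle-aged libraries. That of Yap1, 12.8 kb upstream, was called only in young 2 at 20.5 and in middle-aged 2 at 27.1, that of Tead4, 17.7 kb upstream, only in middle-aged 1 at 16.4, and that of Wwtr1, 74 kb into the gene, only in middle-aged 3 at 31.4. Of the 7 regions called in 1 library, 6 were from middle-aged libraries, as were 10945 of the 14693 such regions of the whole series.

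**Figure D5:**
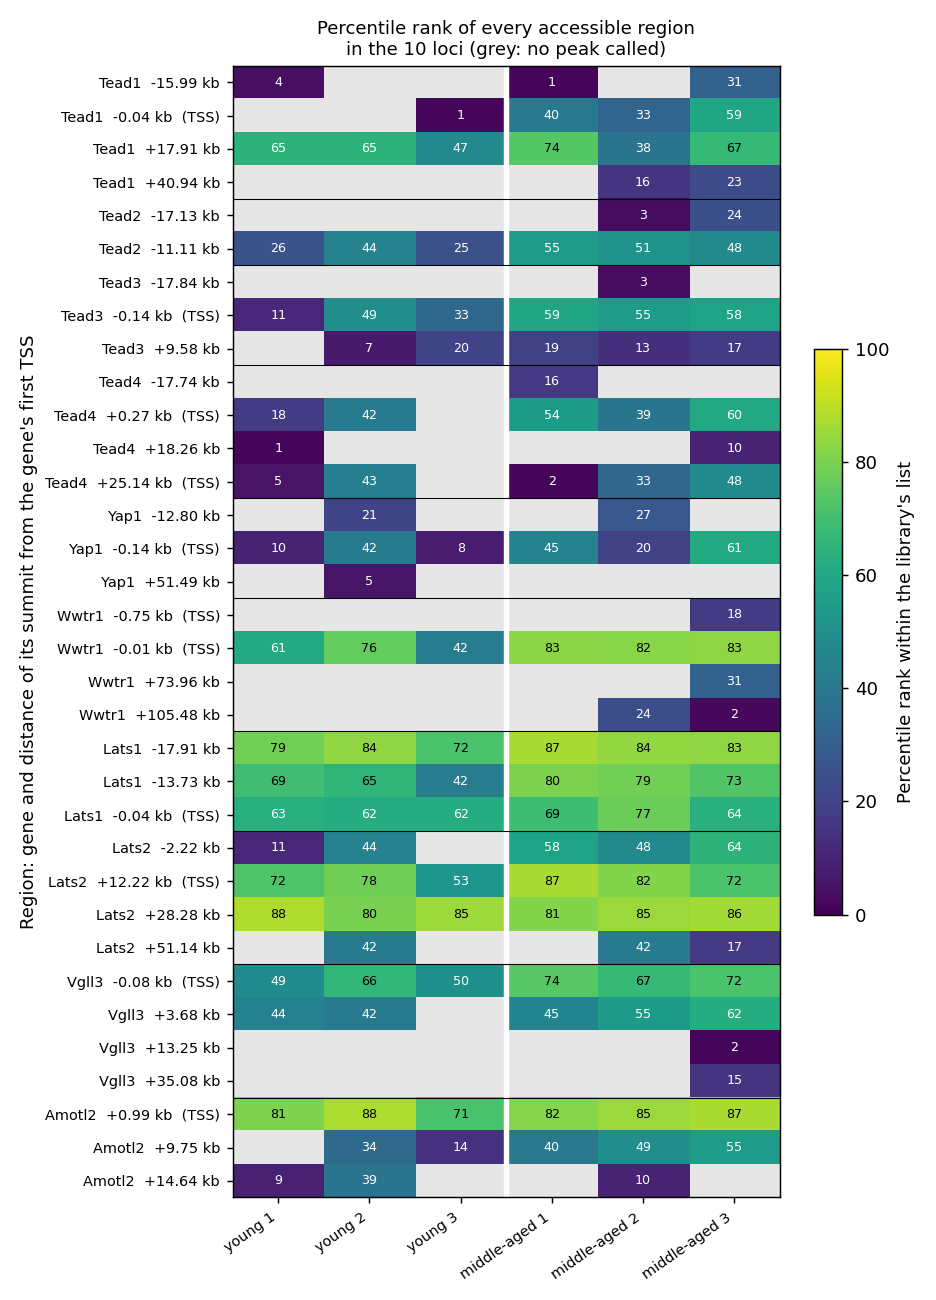
Percentile rank of the 34 regions of the 10 loci (rows, with the distance of the summit from the gene's first start site in kb; TSS marks regions at a start site) in the 6 libraries (columns); grey means no peak called. Of the 34 regions 12 have a value in every column, and none is filled in all middle-aged columns and empty in all young ones.

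The rest of the pathway was described by 2 further lists. In a list of 24 upstream and core genes, 22 had a start-site peak and 5 separated with middle-aged above (Sav1, Mob1a, Taok1, Ptpn14 and Rassf1), 0 the reverse, with a median difference of 3.74 points. In a list of 20 genes that Yap1 and TEADs are known to activate, 18 had a peak and 6 separated with middle-aged above (Ccn2, Fjx1, Nt5e, Asap1, Myof and Ptpn14), 0 the reverse, with a median of 11.1 points. Over the 43 genes of both lists, 10 of 39 with a peak separated (25.6%), which is near the 27.6% of all genes. Stk3, an upstream kinase that phosphorylates Lats1 and Lats2, was among the strongest start sites of all, at 99.1 to 99.9 in every library. Taok1, a kinase that activates it, had 35.4, 72.2 and 58.6 in young and 81.9, 86.1 and 84.2 in middle-aged libraries. Ptpn14, a phosphatase that binds Yap1, had 66.4, 66.8 and 44.7 against 77.0, 77.2 and 83.3. The matricellular target Ccn2 had 8.69, 28.5 and 0 against 35.7, 32.7 and 52.0, and its relative Ccn1 had a peak only in middle-aged 3, at 13.7. Nt5e, the surface enzyme CD73, had 26.1, 40.6 and 4.03 against 52.0, 41.0 and 55.3, so that middle-aged 2 was less than 1 point above young 2.

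The genes whose 6 ranks were most like those of Tead1 were Pcdhac1 (root mean square difference 2.82 points over 6 libraries), the stromal marker Pdgfra (6.12) and Galntl5 (6.49). Pdgfra had a peak in young 1 only among the young libraries, at 8.16, and ranked 35.7, 42.7 and 53.0 in the middle-aged ones. For Wwtr1 they were Mapk1ip1l (2.20), Sash1 (2.36) and Gemin5 (2.57), and for Yap1 Ints5 (5.27), Tmie and Als2cl (6.00 each, from the same peak values).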

How the data were processed

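ATAC-seq peak lists of 3 young and 3 middle-aged SSPC libraries were used, grouped by their labels. Base calls were converted by the authors using bcl2fastq, mapping to mm10 used Bowtie2, duplicates were removed with Sambamba, and MACS called peaks in each library; caller settings and any transposase shift are not given in the sources used here. The deposited score is a whole-number form of the −log10 q. The deposited fold enrichment is a ratio of summit pileup to local background. The −log10 p and −log10 q at the summit were deposited by the authors for each peak. Read totals are not in these lists, so depth was taken from the genome-wide background solved from fold and p (within 0.001 for over 99.9% of peaks), and its precision is limited by the number of libraries.

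Peaks were matched to 54361 protein-coding start sites (GENCODE, mm10). The members, lists and named genes were chosen with earlier results of these data known: all 10 genes, up to 8 others with the largest differences that do not overlap, Ccn1 and Ccn2, the 3 most similar genes of Yap1, Wwtr1 and Tead1, and the strongest distal regions. Stk3, Mob1a, Rassf1 and the Lats2 region before its first start site were named after their values were seen. Ranks were compared by exact permutation over 20 assignments, whose smallest two-sided p is 0.1, so no gene could pass 0.05. Scripts used Python 3.11.15, numpy 2.4.6, pandas 2.3.3 and scipy 1.17.1, and were tested on simulated data. Alternatives covered ranking by fold, list length, shared regions, a −log10 q of at least 5, windows, thinning, summit height, each library left out and a replicate block. Thinned ranks, the count of merged regions, the RefSeq windows and the bands of mean rank were added after the data were seen, as was a search for another motif, which is not reported here. The authors' differential comparison needs reads and was not repeated.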

Additional observations from a re-analysis of the deposited data

How the results depend on the processing

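With equally long lists the median rank difference of the 9 genes was 8.07 points, against 0.954 over all genes. Of the 9 genes 1 (Wwtr1) separated, and of the other Hippo genes 3 did so with middle-aged above and 1 with young above. Over all genes 8.87% and 3.36% separated in these directions. The gain in genes with a start-site peak was 0.667 in place of 1. The ratio of locus peaks was 1.02 in place of 1.38. Among regions called in all 6 libraries the median was 7.0 over the 7 genes left, 1 gene (Wwtr1) separated, and so did 3 other Hippo genes with middle-aged above and 1 with young above, against 9.27% and 3.77% of all genes. Lats1 reversed to -2.27 and -2.22 points and Amotl2 to -1.68 and -2.15 under these 2 settings. The shorter lists leave fewer genes ranked, 12078 and 10557 in place of 13447. Lats1 and Amotl2 kept a start-site rank under both settings, and the cause of their reversals was not tested. Ranking by fold enrichment separated 3 genes (Tead1, Tead3 and Wwtr1) against 21.8% of all genes. Summit height over the genome-wide background, another unit, gave a median difference of 5.85, against 6.49 over all genes. It separated 4 genes, against 52.7% of all genes. Keeping only peaks with −log10 q of 5 or more raised the gain in genes with a start-site peak to 1.67. It gave 1 age-specific region of 30, a middle-aged one, against 1099 middle-aged ones of 55008 in the whole series. A reciprocal overlap of 50% gave 2 such regions of 54, 1 for each age. The whole series then held 1609 for middle-aged and 171 for young, of 79263. Leaving out each library in turn gave medians from 14.0 (without young 3) to 31.2 (without young 2), against 2.64 and 7.85 over all genes. It gave 5 to 8 separating genes (8 without young 2). The share of all genes that separate rose to between 29.7% and 53.4% (53.4% without young 2). The other Hippo genes that separated numbered 10 to 17 (17 without young 2, 15 without middle-aged 1). The gain was 1 gene throughout, and locus ratios ran from 1.26 to 1.54. Age-specific regions numbered 0 to 3, with 1 of 34 without young 3 and 3 of 33 without middle-aged 1, all middle-aged. Over the whole series, 1630 of 63583 and 2853 of 60732 regions were middle-aged-specific in these settings.

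Equal replicate numbers did not mark pairs: deviations from the group means correlated at 0.00276, -0.00309 and -0.0414 between libraries of the same number. The replicate block gave a median of 22.0 points, 6 genes higher in all 3 pairs, a gain of 1 gene and a locus ratio of 1.44. The share of all genes higher in all 3 pairs was not measured. Over all 13447 genes with a start-site peak, 12354 had the higher mean in middle-aged libraries. Of the single genes' values, 6 moved, 4 reversed and the rest did neither. Moved meant a change of more than the spread between libraries. For summit height, in another unit, it meant a change between overlap and no overlap, as for Lats1. With 3 libraries per age, p-values could not pass the threshold under any setting. With lists thinned to the lowest background, 5 genes separated, against 31.1% of all genes. The median difference was 24.2 points and the locus ratio 1.45. Thinning cannot restore peaks that a shallow list such as young 3 did not call.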

Other observations

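The strongest regions of the 10 loci away from any protein-coding start site overlapped between the ages, in introns of Lats2 (84.4 ± 4.32 against 84.1 ± 2.45, SD, n = 3) and Tead1 (58.8 ± 10.2 against 59.7 ± 18.8, SD, n = 3). Peak density differed widely between the loci, from 1.08 peaks per 100 kb at Tead1 to 6.35 at Amotl2, with a median of 3.93 over genes with a locus peak. Only 2 of the 34 regions held both the TEAD and the AP-1 letters within 200 bp of the summit (5.88%, against 2.45% of all regions), one in Tead1 and one in Vgll3.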
